A study of Solanum virginianum with 24 samples.

Results

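Eggplant fruit 20 days after anthesis (20 dpa) was compared with fruit of the day of anthesis (0 dpa), which sets a young growing fruit against its starting stage. The comparison rested on 6 arrays, the 3 titled 20 dpa and the 3 titled 0 dpa that the labels mark as normalised together with them, out of 24 deposited columns for 15 distinct arrays. The 0 dpa arrays were also deposited with the 5, 10 and 50 dpa arrays, so every stage of the series shares them. All fruit was of cultivar PPL, from hand-pollinated flowers of glasshouse plants, and it was frozen at harvest before total RNA was extracted. The series title gives the species as Solanum melongena, whereas the sample records give Solanum virginianum. The labels name the tissue only as fruit, so skin, flesh, placenta and seeds may all have contributed, and each of the 3 arrays of a stage is called a biological replicate, without saying how many fruits or plants it holds. Labelled RNA was put on a GeneChip designed for tomato, whose gene symbols are used here, and the probes report eggplant transcripts that resemble them.

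Fleshy fruit of the nightshade family grows after pollination by cell division and then mainly by cell expansion, for which walls are loosened by expansins, xyloglucan-modifying enzymes and glycosidases while vacuoles fill with sugars and organic acids. Young fruit is green, with photosynthetic plastids, and the later ripening programme of tomato is driven by ethylene and by MADS-box and NAC transcription factors. Eggplant is eaten as an unripe growing fruit, and it accumulates chlorogenic acid and, in coloured cultivars, anthocyanins.

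The deposited log2 values were centred by the authors on the median of the 6 arrays for each probe set, so a value gives only the distance from that median. No signal level is left, levels of different genes cannot be compared, and a probe set near background could not be recognised. By construction the 2 innermost of the 6 values mirror each other around 0, so only differences between arrays are read here. Fold changes below are on the log2 scale, 20 dpa minus 0 dpa, with the standard error of limma's fit after ± (3 arrays a group), and adjusted p values are from limma after Benjamini-Hochberg adjustment over 10101 probe sets. The unpaired t-test that the study's design names, run on the same values and adjusted the same way, is called the methods' t-test and is given where it ended a call. In these bulk samples a lower share of a cell type and less RNA per cell cannot be told apart.

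Of 10101 probe sets, 3830 passed the threshold of 0.05, which is 37.9%: 1803 were higher at 20 dpa (17.8%) and 2027 were lower (20.1%). At least 2-fold changes were shown by 545 of them (5.4%), with 325 higher (3.22%) and 220 lower (2.18%). The 3 arrays of each stage did not overlap at 4985 probe sets (49.4%), and the median change over all probe sets was -0.02. Only 909 probe sets carried a gene symbol, for 803 genes, and 176 of these were bare locus numbers. Of 82 genes with several probe sets, 45 had the same call on all of them. Among the 627 genes with a name, 107 were higher and 165 were lower. Within a group, the arrays lay close together, with at most 1 probe set per array more than 1 log2 unit from its group mean. Control probes for RNA integrity moved with the stage. The GAPDH control's 5′ minus 3′ value was 0.65, 0.30 and 0.41 on the 20 dpa arrays, against -0.41, -0.49 and -0.59 on the 0 dpa arrays, a difference of 0.95. For the actin control the difference was 0.52 and for the ubiquitin control it was 0.26. The part of RNA integrity in the changes below was not tested.

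Marker genes of other material were read in 4 lists, beside the 37.9% of all probe sets that passed. The lists hold 4 to 8 genes, so their shares rest on single calls. None of 5 pollen and anther genes passed the threshold, with changes of -0.27 to 0.05 (median -0.09). None of 8 genes that mark ripe tomato pericarp passed, with changes of -0.13 to 0.15 (median 0.01). Among them were PG2, the ripening polygalacturonase (0.07 ± 0.08), E8 (0.15 ± 0.15) and the expansin EXP1 (0.02 ± 0.11). The phytoene synthase Psy1, which is 1 of the 8, was lower at 20 dpa on another of its probe sets (-0.86, adjusted p 0.00435). Of 4 ovary and young fruit genes, 2 were lower, fsm1 and AG1, of which AG1 did not pass the methods' t-test (adjusted p 0.0538). Of 4 seed genes, MAN2 was higher and MAN1, TAS14 and LEA14 lay between -0.07 and 0.15. Since no level is left in the values, the markers cannot show that a tissue was absent, and their part in the results was not tested.

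The strongest response of a named gene was that of ACO5, which encodes an ACC oxidase, the enzyme that makes ethylene from its precursor. ACO5 had values of 3.11, 3.11 and 3.10 on the 20 dpa arrays, against -3.10, -3.13 and -3.53 on the 0 dpa arrays. The arrays of each stage lay close together, and the gap between the stages was 82.1-fold, with a log2 change of 6.36 ± 0.12 (adjusted p 1.7e-08). It ranked 2 among all 10101 probe sets by size of rise. Its change from 0 dpa was 0.83 at 5 dpa, 3.40 at 10 dpa, 6.36 at 20 dpa and 4.79 at 50 dpa, so of the 4 later stages 20 dpa was the highest.

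The next rises by size belonged to a heat shock protein, a wall enzyme and the photosynthetic machinery. HSP17-6, a small heat shock protein, had values of 1.61, 1.69 and 1.62 on the 20 dpa arrays, against -2.61, -2.69 and -1.61 on the 0 dpa arrays. The 0 dpa replicate 3 array stood above the others of its stage but still far below every 20 dpa array, and the change was 3.94 ± 0.25 (adjusted p 7.88e-06). MAN2, an endo-mannanase that cuts wall mannans and in tomato is known from germinating seed, had values of 1.70, 1.77 and 1.47 on the 20 dpa arrays, against -1.47, -2.69 and -2.32 on the 0 dpa arrays, again without overlap, and a change of 3.81 ± 0.26 (adjusted p 1.27e-05). Xegip, an inhibitor of fungal xyloglucan-degrading enzymes, had values of 1.11, 0.94 and 1.04 on the 20 dpa arrays, against -1.82, -2.32 and -0.94 on the 0 dpa arrays. Its 0 dpa arrays were spread widely and all lay below the 20 dpa arrays, with a change of 2.72 ± 0.29 (adjusted p 0.000152). The others among the 15 largest rises were PSBP, PsbQ, PSBO, CAB4, CAB6A, PSBR and POR2 of the chloroplast, TBG4 and XTH3 of the wall, vis1 (1.60 ± 0.15), a relative of small heat shock proteins known from tomato fruit juice viscosity, and matriochka (1.73 ± 0.17).

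Among the 15 largest falls, Cel1, an endoglucanase that cuts glucan chains of the wall, came first. It had values of -1.59, -1.69 and -1.78 on the 20 dpa arrays, against 1.64, 1.62 and 1.59 on the 0 dpa arrays, without overlap, a 9.83-fold lower level at 20 dpa (-3.30 ± 0.08, adjusted p 3.59e-08). fsm1, a small MYB-like protein that tomato makes in very young fruit, had values of -1.21, -2.17 and -2.16 on the 20 dpa arrays, against 1.21, 1.23 and 1.41 on the 0 dpa arrays. The first 20 dpa array was nearly 1 log2 unit above the other 20 dpa arrays and below all 0 dpa arrays, and the change was -3.13 ± 0.24 (adjusted p 2.08e-05). ACO6, another ACC oxidase, had values of -0.86, -1.40 and -1.70 on the 20 dpa arrays, against 0.86, 0.93 and 1.06 on the 0 dpa arrays, and it fell by 2.27 ± 0.19 (adjusted p 3.7e-05). The other ACO6 probe sets also passed, with smaller falls (-1.54 and -1.08). The rest of the 15 were EXPA4 (-2.43), ST2 (-1.78), PDF1B (-1.70), a peptide deformylase, Prg1 (-1.67), XTH1 (-1.67), P18 (-1.67), PPCK2 (-1.61), adc1 (-1.54), ADC (-1.51), HMGR (-1.5), ODC (-1.48) and NML2 (-1.45). Their adjusted p values were at most 0.00049. Passing the threshold and arrays without overlap were conditions for being among the 15 rises or falls. Of all probe sets, 49.4% did not overlap.

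**Figure D1:**
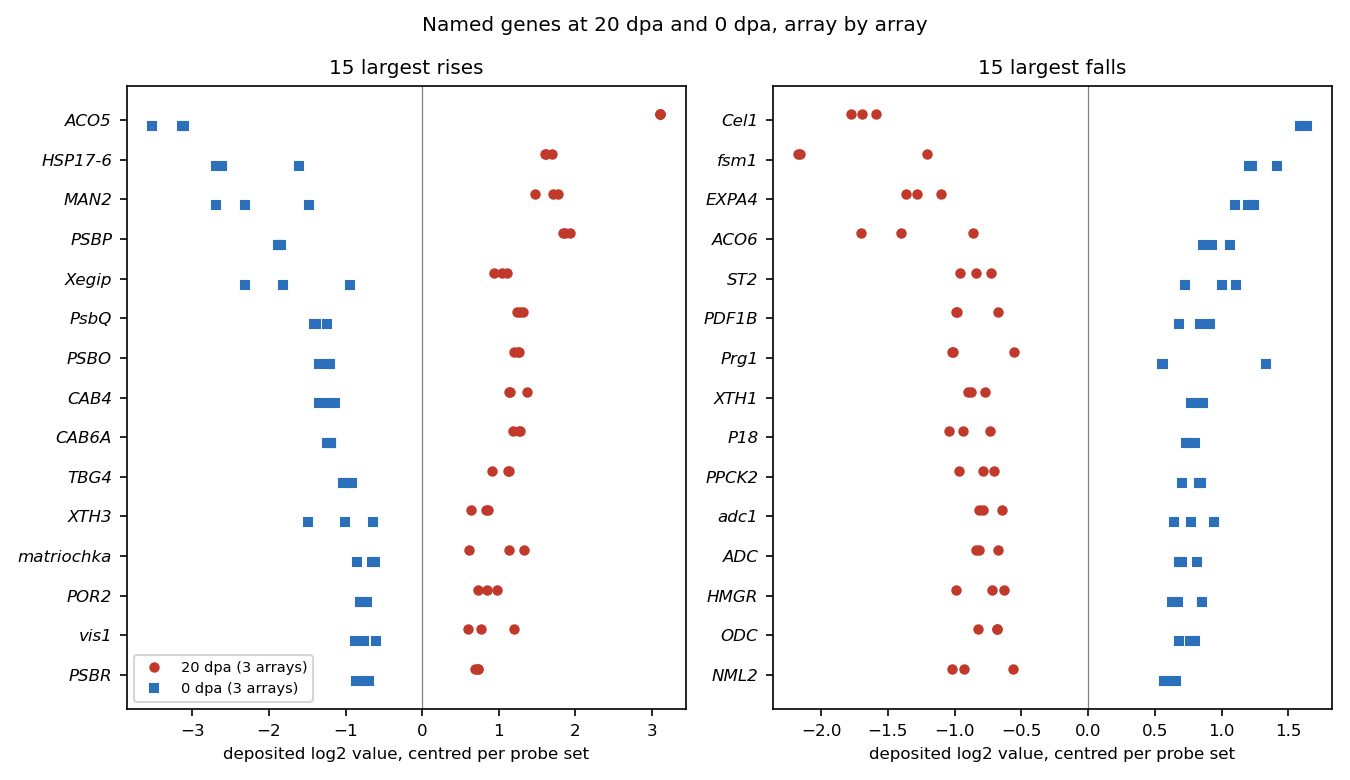
Deposited log2 values of the 15 named genes with the largest rises (left) and the 15 with the largest falls (right), with circles for the 3 arrays of 20 dpa and squares for the 3 arrays of 0 dpa. Each probe set is centred on the median of its 6 arrays, so only the distance between the groups can be read. Only genes whose groups do not overlap were taken, so the lack of overlap is by choice. The widest gap is that of ACO5.

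The largest rise and the largest fall of all probe sets were on probe sets without a symbol, and ACO5 had the next largest rise. The probe set with the largest rise had values of 3.63, 3.75 and 3.58 on the 20 dpa arrays, against -4.13, -4.10 and -3.58 on the 0 dpa arrays, a change of 7.59 ± 0.15 or 193-fold. It was at 0.01, 0.02, 7.59 and 3.49 relative to 0 dpa at 5, 10, 20 and 50 dpa, so its large values began between the 10 and 20 dpa samples. The largest rise among the other probe sets with no symbol, 5.71 ± 0.07, was also near its 0 dpa value until 10 dpa but no lower at 50 dpa than at 20 dpa, with 0.29, 0.01, 5.71 and 6.04 at the 4 later stages. In the other direction, the largest fall had values of -2.29, -2.75 and -2.83 on the 20 dpa arrays, against 2.29, 2.35 and 2.58 on the 0 dpa arrays, a change of -5.03 ± 0.15, and the next was -4.18 ± 0.09. What these probe sets detect is not annotated in the sources used here.

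The named genes were grouped into 29 lists by what their products do. In the auxin, sugar, phenylpropanoid, ethylene signalling, membrane transport and pectin lists, 37.5% to 42.9% of the members passed the threshold, near the 37.9% of all probe sets, so their counts do not set these lists apart. Farthest from that share were the photosystem (8 genes), polyamine (3 genes) and cytosolic isoprenoid (2 genes) lists, in which every member passed. Also among the farthest was the abscisic acid list (12 genes), in which 8.33% passed. By the methods' t-test 1 of the 2 cytosolic isoprenoid genes passed, so a share of so few genes rests on single calls. In the remaining lists 27.3% to 64.7% passed. The counts of rises and falls below stand beside the 17.8% of all probe sets that were higher and the 20.1% that were lower.

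**Figure D2:**
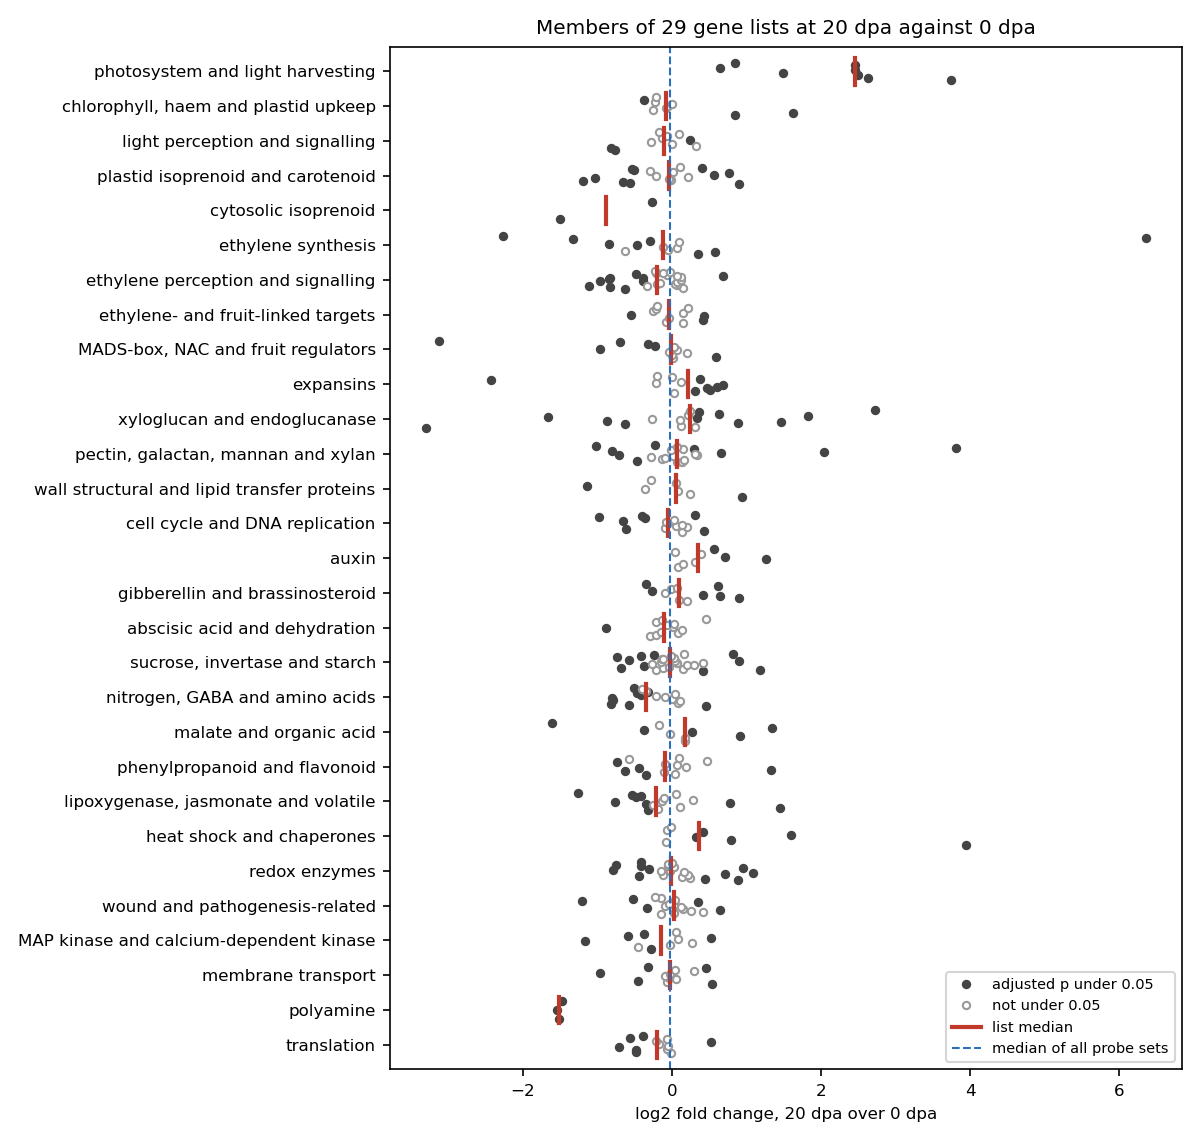
Log2 fold changes of the measured members of each gene list, 20 dpa over 0 dpa. Each point is a gene, filled where its adjusted p was under 0.05; the bar is the median of the list and the dashed line the median of all 10101 probe sets (-0.02). The photosystem and auxin lists lie wholly to the right of it on the probe sets used here, the polyamine and cytosolic isoprenoid lists wholly to the left, and the others on both sides.

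Genes of the photosynthetic apparatus were higher at 20 dpa as a whole. All 8 measured members of the photosystem and light-harvesting list passed the threshold upwards, against 17.8% of all probe sets, and 6 of them by at least 2-fold. Their median change was 2.45, against -0.02 over all probe sets. PSBP, a subunit of the oxygen-evolving complex of photosystem II, had values of 1.84, 1.86 and 1.93 on the 20 dpa arrays, against -1.86, -1.84 and -1.89 on the 0 dpa arrays, so the arrays of each stage nearly coincided and the stages were far apart (3.74 ± 0.07, 13.4-fold, adjusted p 1.7e-08). The other oxygen-evolving subunits, PsbQ (2.62 ± 0.08) and PSBO (2.50 ± 0.08), and the photosystem II subunit PSBR (1.49 ± 0.08) were also higher. CAB6A, which binds chlorophyll in a light-harvesting antenna, had values of 1.18, 1.28 and 1.27 on the 20 dpa arrays, against -1.25, -1.19 and -1.18 on the 0 dpa arrays. Its change was 2.45 ± 0.07 and that of the antenna gene CAB4 was 2.45 ± 0.10. The smallest changes of the list were those of PETE, the electron carrier plastocyanin (0.85 ± 0.10), and of the antenna gene CAB5 (0.64 ± 0.21, adjusted p 0.0395). Antenna genes form families of near-identical copies, so a tomato probe set may collect the signal of several eggplant genes. The call of CAB5 was lost without 20 dpa replicate 2 or 3 or 0 dpa replicate 1, 2 or 3 (adjusted p 0.0708 to 0.113). CAB5 was not called by the methods' t-test (adjusted p 0.18).

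Most photosystem genes were lower at 20 dpa than at 10 dpa. In the fit of the later stages, in which each array was set against the 0 dpa mean of its own set, 7 of the 8 were lower at 20 dpa than at 10 dpa (17.3% of all probe sets were), with a median difference of -0.56. That fit sets values across separately normalised tables, here and in every comparison with 10 or 50 dpa, and leaves out the error of the shared 0 dpa mean. PsbQ, for example, stood at 2.55, 3.77, 2.62 and 2.18 relative to 0 dpa at 5, 10, 20 and 50 dpa. PSBR was the exception, with a difference of -0.01 ± 0.07 between 20 and 10 dpa (adjusted p 0.906). At 50 dpa, 6 of the 8 were below 20 dpa (15.5% of all probe sets were), with PETE at -0.35 relative to 0 dpa.

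Of 9 genes of chlorophyll synthesis and plastid upkeep, 2 rose and 1 fell. These make 33.3% of the list, against 37.9% of all probe sets, so the count does not set it apart. POR2, the light-dependent protochlorophyllide reductase of chlorophyll synthesis, had values of 0.85, 0.73 and 0.97 on the 20 dpa arrays, against -0.79, -0.81 and -0.73 on the 0 dpa arrays, well apart by stage (1.62 ± 0.09, adjusted p 2.93e-06). GSA-AT, an aminotransferase that makes the first precursor of chlorophyll and haem, changed by 0.85 ± 0.10. DCL, which tomato needs for chloroplast development, changed by -0.38 ± 0.11 and the median of the list was -0.08. Among 10 genes of light perception and signalling, 2 photoreceptor genes fell, phytochrome PHYA (-0.77 ± 0.10) and cryptochrome CRY1A (-0.81 ± 0.08), and the light signalling repressor COP1 rose (0.25 ± 0.08). The other probe set of CRY1A did not pass (-0.25, adjusted p 0.101). HY5, a promoter of light responses, did not pass (-0.28 ± 0.13), and the median of this list was -0.10. DCL missed the threshold without 20 dpa replicate 1 or 2 or 0 dpa replicate 1 or 2 (adjusted p 0.0592 to 0.0678). For COP1 the adjusted p was 0.0822 to 0.139 without 20 dpa replicate 1 or 2 or 0 dpa replicate 1, 2 or 3. Adjusted p values of the methods' t-test were 0.0612 to 0.0803 for DCL and COP1.

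Plastid isoprenoid and carotenoid genes changed in both directions, 4 upwards and 6 downwards among 17 (median -0.04). DXS, the entry enzyme of the plastid isoprenoid pathway, had values of 0.57, 0.53 and 0.34 on the 20 dpa arrays, against -0.38, -0.34 and -0.56 on the 0 dpa arrays, higher on all 20 dpa arrays (0.90 ± 0.10). The later enzymes of the same pathway were lower, with DXR at -0.57 ± 0.07, ISPE at -0.66 ± 0.08 and HDS at -1.20 ± 0.08. HDS had values of -0.61, -0.66 and -0.54 on the 20 dpa arrays, against 0.63, 0.54 and 0.62 on the 0 dpa arrays, the clearest separation of these (adjusted p 8.68e-06). Of the carotenoid enzymes, phytoene desaturase PDS (-1.03 ± 0.15) and neoxanthin synthase NSY (-0.51 ± 0.10) fell. The hydroxylase CrtR-b1 (0.76 ± 0.07) and the lycopene cyclase CRTL-E-1 (0.56 ± 0.16) rose. The carotenoid cleavage genes went opposite ways, with CCD1B at 0.40 ± 0.09 and CCD1A at -0.54 ± 0.07. Psy1, the phytoene synthase of ripening tomato, changed by -0.01 ± 0.19 on the probe set used here, but by -0.86 (adjusted p 0.00435) on another of its probe sets, so it is given no direction. In the cytosolic branch HMGR, the rate-limiting enzyme of the mevalonate pathway, had values of -0.72, -0.99 and -0.63 on the 20 dpa arrays, against 0.68, 0.63 and 0.85 on the 0 dpa arrays, lower at 20 dpa on every array (-1.5 ± 0.11, adjusted p 2.06e-05). FPPS1, the farnesyl diphosphate synthase, changed by -0.27 ± 0.09. For CRTL-E-1 the adjusted p was 0.0527 to 0.0776 without 20 dpa replicate 2 or 3 or 0 dpa replicate 1 or 2. The call of FPPS1 was lost without 20 dpa replicate 1 or 3 or 0 dpa replicate 1, 2 or 3 (adjusted p 0.0598 to 0.113). CRTL-E-1 and FPPS1 did not pass the methods' t-test (adjusted p 0.0649 to 0.125).

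Ethylene synthesis genes differed in direction within the ACC oxidase family. ACC oxidases held both the largest rise of the list, that of ACO5, and the largest fall, that of ACO6 on the probe set used here. ACO4 changed by -1.33 ± 0.11 (adjusted p 4.45e-05). ACO4 had values of -0.51, -0.84 and -0.89 on the 20 dpa arrays, against 0.56, 0.51 and 0.68 on the 0 dpa arrays, without overlap. Of the ACC synthase genes, whose enzymes make the ethylene precursor, ACS5 (-0.47 ± 0.08), ACS6 (-0.84 ± 0.15) and ACS8 (-0.30 ± 0.09) were lower. ACS2 (-0.06 ± 0.12) and ACS4 (-0.13 ± 0.15), which drive ethylene in ripening tomato, did not pass. Nor did ACS3 (0.06), ACS7 (0.09) and ACS1A (-0.64 ± 0.28). The S-adenosylmethionine synthetases SAM1 (0.34 ± 0.08) and SAM3 (0.58 ± 0.09), which supply the methyl donor from which the precursor is made, were higher. In all, 3 of 13 rose and 5 fell, with a median of -0.13. The call of ACS8 was lost without 20 dpa replicate 1 or 3 or 0 dpa replicate 2 or 3 (adjusted p 0.0778 to 0.0925). ACS8 was not called by the methods' t-test (adjusted p 0.063).

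Of 25 genes of ethylene perception and signalling, 9 fell, 1 rose and 15 did not pass, and the median was -0.20. The receptors ETR5 (-1.11 ± 0.08), ETR4 (-0.83 ± 0.12) and ETR1 (-0.64 ± 0.14) fell, while ETR2 (0.14 ± 0.09) and ETR6 (-0.33 ± 0.12) did not pass. ETR5 had values of -0.54, -0.50 and -0.66 on the 20 dpa arrays, against 0.53, 0.50 and 0.60 on the 0 dpa arrays, with the stages clearly apart (adjusted p 1.72e-05). EIN2, the membrane protein that passes the signal on, changed by -0.39 ± 0.09. Of the EIN3-like transcription factors, EIL1 (-0.96 ± 0.09), EIL3 (-0.84 ± 0.21) and EIL4 (-0.84 ± 0.07) fell and EIL2 did not pass (0.12 ± 0.08). EIL1 had values of -0.47, -0.44 and -0.39 on the 20 dpa arrays, against 0.55, 0.64 and 0.39 on the 0 dpa arrays. The CTR kinases that hold the pathway back, CTR1, CTR3, CTR4, TCTR1v and TCTR2, lay between -0.20 and 0.07, and none passed. Among the ethylene response factors ERF4 rose (0.69 ± 0.13), PTI4 (-0.48 ± 0.09) and EREB (-0.38 ± 0.11) fell, and the others did not pass. EIL3 missed the threshold without 0 dpa replicate 3 (adjusted p 0.0527). For EREB the adjusted p was 0.0754 to 0.0938 without 20 dpa replicate 1 or 2 or 0 dpa replicate 2 or 3. Adjusted p values of the methods' t-test were 0.0733 to 0.107 for ETR1, EIL3 and EREB.

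Of 11 ethylene- and fruit-linked targets, 2 rose and 1 fell (27.3%, against 37.9% of all probe sets), with ER24 at 0.42 ± 0.10, ER5 at 0.42 ± 0.13 and ER43 at -0.55 ± 0.12, and none of the 3 passed the methods' t-test. Of 12 MADS-box, NAC and fruit regulator genes, 1 rose and 5 fell (50% passed, and 3 genes by the methods' t-test). RIN, the MADS-box master regulator of tomato ripening, had values of 0.25, -0.25 and -0.01 on the 20 dpa arrays, against 0.02, 0.01 and -0.09 on the 0 dpa arrays. The groups overlapped, and the change was 0.01 ± 0.12. TDR4 (0.01 ± 0.09) and TAGL1 (0.07 ± 0.08), MADS-box genes of fruit, did not pass. NOR, the NAC regulator of ripening, had values of 0.23, 0.15 and 0.52 on the 20 dpa arrays, against -0.27, -0.47 and -0.15 on the 0 dpa arrays, higher at 20 dpa on each array by a small margin (0.59 ± 0.12, adjusted p 0.00575). The falls were those of fsm1, AG1, the floral organ identity gene (-0.96 ± 0.18), OVATE, which shapes tomato fruit (-0.70 ± 0.20), NAC1 (-0.33 ± 0.08) and MADS1 (-0.23 ± 0.07). For ER5 the adjusted p was 0.0543 to 0.106 without 20 dpa replicate 2 or 3 or 0 dpa replicate 1, 2 or 3. The call of OVATE was lost without 20 dpa replicate 3 or 0 dpa replicate 3 (adjusted p 0.0609 to 0.0726). MADS1 missed the threshold without any 1 of the arrays (adjusted p 0.0741 to 0.0901). ER24, ER5, ER43, NOR, AG1 and OVATE did not pass the methods' t-test (adjusted p 0.0538 to 0.141).

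Among the wall genes, expansins, which loosen walls without cutting them, included 6 that rose and 1 that fell of 12 (median 0.21). The rises were small, with exp11 at 0.61 ± 0.10, EXP5 at 0.51 ± 0.09, EXPA6 at 0.38 ± 0.09, EXP12 at 0.69 ± 0.21, exp9 at 0.47 ± 0.12 and EXP2 at 0.30 ± 0.08. The fall was large. EXPA4 had values of -1.28, -1.1 and -1.37 on the 20 dpa arrays, against 1.20, 1.1 and 1.25 on the 0 dpa arrays, a 5.38-fold lower level at 20 dpa (-2.43 ± 0.09, adjusted p 3.91e-07). EXPA4 went on from -0.91 at 5 dpa and -1.0 at 10 dpa to -4.66 at 50 dpa. EXP1, EXPA3, EXPA8, EXPA10 and exp18 lay between -0.21 and 0.13 and did not pass. Expansins are a family of similar sequences, so eggplant copies may share a probe set. The call of EXP12 was lost without 20 dpa replicate 2 or 0 dpa replicate 3 (adjusted p 0.0843 to 0.099). exp9 missed the threshold without 0 dpa replicate 1 or 2 (adjusted p 0.0503 to 0.0535). For EXP2 the adjusted p was 0.0514 to 0.0573 without 20 dpa replicate 1 or 3 or 0 dpa replicate 2. Calls lost by the methods' t-test were those of EXP12 and exp9 (adjusted p 0.088 to 0.164).

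The list of xyloglucan-modifying enzymes and endoglucanases, which also holds the inhibitor Xegip, had the widest spread of the wall genes. Of its 17 genes, 7 were higher and 4 lower (3 and 4 by the methods' t-test), with a median of 0.23. The largest rise of the list was that of Xegip (2.72). XTH3, a xyloglucan endotransglucosylase, had values of 0.86, 0.64 and 0.84 on the 20 dpa arrays, against -0.64, -1.0 and -1.49 on the 0 dpa arrays, with 1 low array at 0 dpa and no overlap (1.82 ± 0.19). The endoglucanase CEL8 had values of 0.68, 0.74 and 0.82 on the 20 dpa arrays, against -0.68, -0.74 and -0.73 on the 0 dpa arrays, tightly grouped by stage (1.46 ± 0.08, adjusted p 2.48e-06). Smaller rises were those of cel7 (0.89 ± 0.17), XTH6 (0.63 ± 0.15), XTH7 (0.36 ± 0.11) and tXET-B2 (0.33 ± 0.09). Beside Cel1, the falls were those of XTH1 (-1.67 ± 0.08), CELLULASE (-0.87 ± 0.10) and cel5 (-0.64 ± 0.09). XTH1 had values of -0.77, -0.88 and -0.90 on the 20 dpa arrays, against 0.86, 0.84 and 0.77 on the 0 dpa arrays, so 2 members of the same enzyme family, XTH3 and XTH1, differed in direction. XET2 did not pass (0.11 ± 0.07), and XTH16 (0.23 ± 0.12) passed only on another of its probe sets (0.33, adjusted p 0.00898). XTH7 missed the threshold without 20 dpa replicate 1, 2 or 3 or 0 dpa replicate 1 (adjusted p 0.0602 to 0.0944). For tXET-B2 the adjusted p was 0.0552 to 0.0656 without 20 dpa replicate 3 or 0 dpa replicate 1 or 3. Adjusted p values of the methods' t-test were 0.0543 to 0.12 for cel7, XTH6, XTH7 and tXET-B2.

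Of 21 genes for pectin, galactan, mannan and xylan breakdown, 4 rose, 5 fell and 12 did not pass, with a median of 0.07. TBG4, a beta-galactosidase that in tomato takes part in fruit softening, had values of 0.92, 1.12 and 1.13 on the 20 dpa arrays, against -0.92, -1.01 and -1.03 on the 0 dpa arrays, a 4.11-fold rise without overlap (2.04 ± 0.09, adjusted p 8e-07). The 7 tomato beta-galactosidase genes did not move together. TBG3 (0.65 ± 0.13) and TBG7 (0.30 ± 0.10) also rose, TBG1 (-0.71 ± 0.11) and TBG5 (-0.81 ± 0.08) fell, and TBG2 (0.31 ± 0.12) and TBG6 (-0.01 ± 0.10) did not pass. MAN2 rose, as given above, whereas the mannanases MAN1 (0.15) and Man4 (0.07) did not pass. The xylosidase XYL1 (-1.02 ± 0.17), XOPG1 (-0.48 ± 0.11) and the alpha-galactosidase AGAL (-0.23 ± 0.07) fell. The polygalacturonases PG2, PGcat, TAPG1, TAPG2 and TAPG4 lay between -0.13 and 0.16, and none passed. Of the pectin methylesterases PME2.1, PE1 and PMEU1 none passed (-0.28 to 0.33). For TBG7 the adjusted p was 0.0621 to 0.129 without 20 dpa replicate 1 or 3 or 0 dpa replicate 1, 2 or 3. The call of AGAL was lost without 20 dpa replicate 1, 2 or 3 or 0 dpa replicate 1 or 2 (adjusted p 0.0746 to 0.12). TBG3, TBG7 and XOPG1 did not pass the methods' t-test (adjusted p 0.0561 to 0.106).

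**Figure D3:**
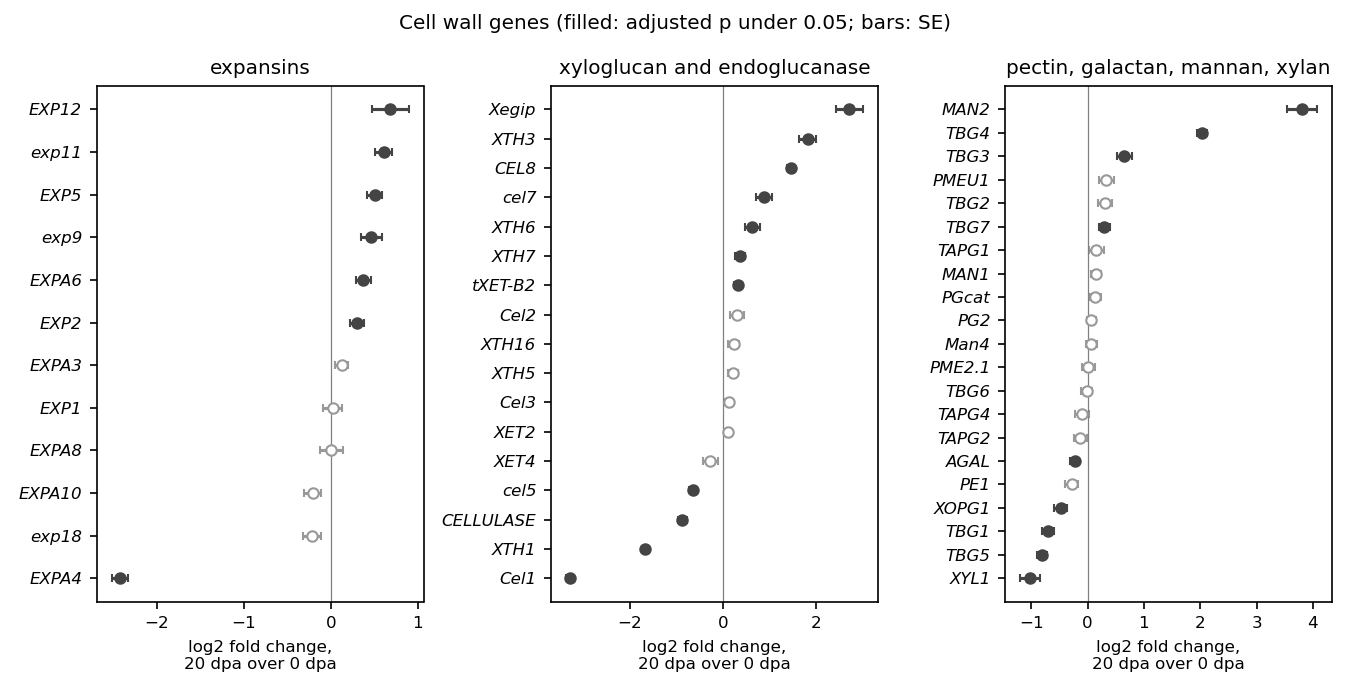
Log2 fold changes, 20 dpa over 0 dpa, with standard errors, of the wall genes in 3 lists; filled circles have an adjusted p under 0.05. Each panel has its own horizontal scale. EXPA4 and Cel1 lie farthest to the left, at -2.43 and -3.30, and MAN2 and TBG4 farthest to the right of the pectin, galactan, mannan and xylan panel.

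Proteins that stay in the wall or coat the surface changed little as a list, with 1 rise and 1 fall among 7 (median 0.06). TPRP-F1, a proline-rich protein of young tomato fruit, rose (0.94 ± 0.11), and TSW12, a lipid transfer protein, fell (-1.14 ± 0.09). TSW12 had values of -0.66, -0.48 and -0.76 on the 20 dpa arrays, against 0.49, 0.48 and 0.56 on the 0 dpa arrays, without overlap. The arabinogalactan protein AGP-1 did not pass (-0.37 ± 0.16).

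Cell cycle genes included 2 that rose and 5 that fell of 15, with a median of -0.06. PCNA, the sliding clamp of DNA replication, had values of -0.46, -0.55 and -0.45 on the 20 dpa arrays, against 0.48, 0.55 and 0.45 on the 0 dpa arrays, lower at 20 dpa on all arrays (-0.98 ± 0.08, adjusted p 2.59e-05). The D-type cyclin CYCD3, which starts the cycle, had values of -0.40, -0.28 and -0.40 on the 20 dpa arrays, against 0.33, 0.28 and 0.30 on the 0 dpa arrays and a change of -0.66 ± 0.08. The plant-specific mitotic kinase CDKB1 (-0.62 ± 0.08), the chromatin assembly protein MSI1 (-0.40 ± 0.09) and the kinase inhibitor krp2 (-0.36 ± 0.07) also fell. cdc2A-2 rose (0.43 ± 0.11). CDKB2, another mitotic kinase (-0.10 ± 0.07), and the A-type cyclins CycA1 (0.06), CycA2 (0.13) and CycA3 (-0.06) did not pass. The histone gene H1 is counted among the rises (0.31 ± 0.10) but its other probe set gave -0.86 (adjusted p 0.000917), so it is given no direction. cdc2A-2 missed the threshold without 0 dpa replicate 1 (adjusted p 0.0511). For H1 the adjusted p was 0.0746 to 0.121 without 20 dpa replicate 1, 2 or 3 or 0 dpa replicate 1 or 2. Adjusted p values of the methods' t-test were 0.0694 to 0.121 for cdc2A-2 and H1.

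CDKB2 was at 2.2, 1.27, -0.10 and -3.92 relative to 0 dpa at 5, 10, 20 and 50 dpa, and CYCD3 at 1.16, 0.59, -0.66 and -3.34. Between 20 and 10 dpa, 7 of the 15 were lower and 3 were higher, against 17.3% and 17.0% of all probe sets. PCNA differed by -1.16 ± 0.09 (adjusted p 6.35e-07) and CDKB2 by -1.37 ± 0.12 (adjusted p 2.6e-06). By 50 dpa PCNA was at -3.35 relative to 0 dpa.

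Of 8 auxin genes, 3 rose and none fell on the probe sets used here (5 rose without 20 dpa replicate 2), with a median of 0.35. IAA16 had values of 0.46, 1.13 and 0.40 on the 20 dpa arrays, against -0.56, -0.40 and -0.81 on the 0 dpa arrays, and it belongs to the auxin-induced repressors of auxin responses (1.25 ± 0.19, adjusted p 0.00123). Its relative IAA17 (0.72 ± 0.19) and the auxin-binding protein gene ERABP1 (0.56 ± 0.10) rose too. IAA27 (0.39 ± 0.14), IAA7 (0.31 ± 0.11), IAA3 (0.15) and ARF3 (0.04) did not pass. On their other probe sets IAA7 (-0.80, adjusted p 0.000242) and IAA27 (-0.28, adjusted p 0.0339) passed with the opposite sign, so neither is given a direction. IAA2 (0.08 ± 0.09) passed only on its other probe set (0.85, adjusted p 0.00328). IAA17 did not pass the methods' t-test (adjusted p 0.113).

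Of 11 gibberellin and brassinosteroid genes, 4 rose and 2 fell (2 and 2 by the methods' t-test), and the median was 0.10. The oxidase genes 20ox-3 (0.90 ± 0.23), GA20OX1 (0.64 ± 0.15) and GA3ox1 (0.42 ± 0.09), which carry out the late steps to active gibberellin, rose, as did the gibberellin-responsive TGAS118 (0.62 ± 0.11). GA20OX1 had values of 0.60, 0.09 and 0.24 on the 20 dpa arrays, against -0.09, -0.47 and -0.45 on the 0 dpa arrays, and the 20 dpa arrays were spread more than those of 0 dpa. The DELLA repressor of gibberellin responses GAI (-0.26 ± 0.07) and the brassinosteroid oxidase CYP85A1 (-0.35 ± 0.08) fell. Of 12 abscisic acid and dehydration genes, 1 passed. AREB1, a transcription factor of abscisic acid responses, had values of -0.37, -0.37 and -0.55 on the 20 dpa arrays, against 0.52, 0.47 and 0.37 on the 0 dpa arrays and fell (-0.88 ± 0.09, adjusted p 9.91e-05), and the other 11 did not pass (median -0.10). Without 20 dpa replicate 1 or 0 dpa replicate 3, 2 genes of that list passed. NCED1, the rate-limiting enzyme of abscisic acid synthesis, was at -0.30 ± 0.12. The call of GAI was lost without 20 dpa replicate 1 or 2 or 0 dpa replicate 1 (adjusted p 0.059 to 0.0669). Calls lost by the methods' t-test were those of 20ox-3 and GA20OX1 (adjusted p 0.0849 to 0.112).

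**Figure D4:**
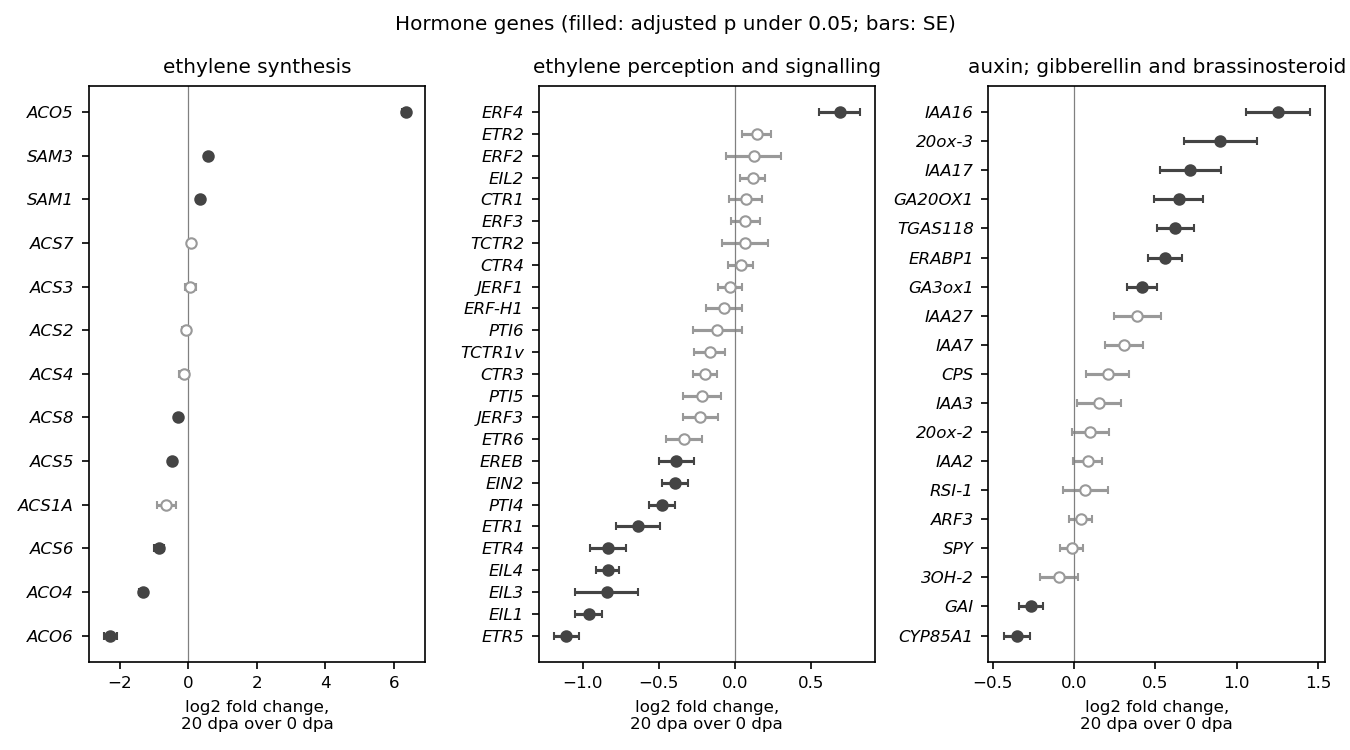
Log2 fold changes, 20 dpa over 0 dpa, with standard errors, of genes of ethylene synthesis, ethylene perception and signalling, and auxin, gibberellin and brassinosteroid; filled circles have an adjusted p under 0.05. Each panel has its own horizontal scale. ACO5 stands alone at 6.36 in the first panel, the filled circles of the second lie to the left except ERF4, and those of the third lie to the right except GAI and CYP85A1.

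All 3 genes that start polyamine synthesis were lower at 20 dpa, each by at least 2-fold on the probe sets used here (2.18% of all probe sets were), with a median of -1.51. The arginine decarboxylase gene ADC had values of -0.82, -0.68 and -0.84 on the 20 dpa arrays, against 0.82, 0.68 and 0.70 on the 0 dpa arrays, and a change of -1.51 ± 0.08 (adjusted p 3.41e-06). Another arginine decarboxylase entry, adc1, had values of -0.65, -0.82 and -0.79 on the 20 dpa arrays, against 0.77, 0.65 and 0.94 on the 0 dpa arrays and a change of -1.54 ± 0.10. The other adc1 probe sets gave -2.72, -0.87 and -0.30, of which the last did not pass (adjusted p 0.134). Ornithine decarboxylase ODC had values of -0.68, -0.68 and -0.83 on the 20 dpa arrays, against 0.80, 0.77 and 0.68 on the 0 dpa arrays and a change of -1.48 ± 0.08. None of the 3 overlapped between stages, and neither did 49.4% of all probe sets. ADC was at -0.14, -0.06, -1.51 and -3.32 relative to 0 dpa at 5, 10, 20 and 50 dpa, while ODC was at -1.17, -0.57, -1.48 and -1.21 at the 4 later stages. ADC and adc1 carry different gene numbers in the annotation, but similar sequences could share signal.

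Genes of nitrogen and amino acid metabolism had 8 falls and 1 rise among 17 (5 falls and no rise by the methods' t-test), and a median of -0.35. gad2, the glutamate decarboxylase that makes GABA, had values of -0.29, -0.44 and -0.20 on the 20 dpa arrays, against 0.88, 0.20 and 0.43 on the 0 dpa arrays and fell (-0.81 ± 0.16). GABA-TP3, a transaminase that removes GABA, fell as well (-0.80 ± 0.08), while GABA-TP1 (0.09) and GABA-TP2 (0.11) did not pass. The amino acid permease AAP2 (-0.81 ± 0.13), glutamate dehydrogenase gdh1 (-0.57 ± 0.07), threonine deaminase TD2 (-0.51 ± 0.12) and the ammonium transporter AMT1-2 (-0.47 ± 0.09) fell. GS2, the plastid glutamine synthetase, rose (0.46 ± 0.11), but its difference from 10 dpa was -1.52 ± 0.08 (adjusted p 1.36e-08). Adjusted p values of the methods' t-test were 0.0601 to 0.0685 for gad2, TD2 and GS2.

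Sugar genes changed in both directions, with 4 rises and 6 falls among 26 (median -0.03). Sucrose synthase sus3 had values of 0.50, 0.67 and 0.64 on the 20 dpa arrays, against -0.62, -0.60 and -0.50 on the 0 dpa arrays, clearly apart (1.18 ± 0.08, adjusted p 1.41e-05). Fructokinase FRK2 (0.90 ± 0.08) and sucrose phosphate synthase SPS (0.41 ± 0.09) also rose, and so did GAL83, a subunit of the SNF1-type kinase of sugar signalling (0.81 ± 0.10). The falls took in the wall-bound invertases lin5 (-0.69 ± 0.13) and Wiv-1 (-0.38 ± 0.09) and the hexose transporter HT1 (-0.73 ± 0.10). lin5 had values of -0.46, -0.16 and -0.54 on the 20 dpa arrays, against 0.53, 0.16 and 0.24 on the 0 dpa arrays, and LIN7 and LIN8 of the same family lay at -0.13 and -0.04. FRK3, another fructokinase, fell (-0.58 ± 0.09). SNF1 and HT3 were also lower, at -0.26 to -0.19 and -0.55 to -0.31 over the alternatives. SNF1 missed the threshold without any 1 of the arrays (adjusted p 0.0644 to 0.125). HT3 missed it without 20 dpa replicate 1 or 3 or 0 dpa replicate 1 or 2 (adjusted p 0.0705 to 0.145). The adjusted p of HT3 by the methods' t-test was 0.167. Vacuolar invertase AI did not pass (0.21 ± 0.08), nor did AGPL3 (0.42), AgpL1 (0.07) and AGP-S2 (-0.27), subunits of the enzyme that commits sugar to starch.

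Of 9 malate and organic acid genes, 3 rose and 2 fell (median 0.17). The malic enzyme gene ME2, which turns malate into pyruvate, had values of 0.69, 0.72 and 0.54 on the 20 dpa arrays, against -0.54, -0.83 and -0.70 on the 0 dpa arrays and rose (1.34 ± 0.10, adjusted p 1.76e-05), whereas ME1 fell (-0.37 ± 0.08). Cytosolic malate dehydrogenase cMDH rose (0.91 ± 0.12). mMDH1 was higher on the probe set used here (0.27 ± 0.09) but at -0.02 on another (adjusted p 0.889). PPCK2, the kinase that activates phosphoenolpyruvate carboxylase, had values of -0.71, -0.78 and -0.97 on the 20 dpa arrays, against 0.84, 0.83 and 0.71 on the 0 dpa arrays and fell (-1.61 ± 0.09, adjusted p 4.53e-06), while PPCK1 did not pass (-0.18). The call of mMDH1 was lost without 20 dpa replicate 1, 2 or 3 or 0 dpa replicate 2 or 3 (adjusted p 0.062 to 0.109). mMDH1 was not called by the methods' t-test (adjusted p 0.0733).

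Phenylpropanoid and flavonoid genes held 1 rise and 4 falls among 13 (median -0.09). CCR1, which commits phenylpropanoids to lignin, had values of 0.68, 0.70 and 0.48 on the 20 dpa arrays, against -0.90, -0.75 and -0.48 on the 0 dpa arrays, higher on all 20 dpa arrays (1.32 ± 0.12, adjusted p 6.27e-05). hqt, the transferase that makes chlorogenic acid, had values of -0.12, -0.39 and -0.24 on the 20 dpa arrays, against 0.12, 0.15 and 0.29 on the 0 dpa arrays and fell by a smaller amount (-0.44 ± 0.10). Chalcone synthase CHS1, the entry to flavonoids and anthocyanins, fell (-0.74 ± 0.08), while CHS2 did not pass (0.46 ± 0.18). Dihydroflavonol reductase DFR, which leads to anthocyanins, had values of 0.06, -0.71 and -0.47 on the 20 dpa arrays, against 0.03, 0.60 and -0.03 on the 0 dpa arrays. The groups overlapped and the change of -0.57 ± 0.22 did not pass (adjusted p 0.073). The anthocyanin regulator ANT1 was at 0.09. The shikimate pathway enzymes CS2 (-0.63 ± 0.08) and DHQS (-0.35 ± 0.09) fell. DHQS missed the threshold without 20 dpa replicate 2 or 0 dpa replicate 1 (adjusted p 0.0685 to 0.07). The adjusted p of DHQS by the methods' t-test was 0.063.

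Lipoxygenase, jasmonate and volatile genes had 2 rises and 7 falls among 16 (median -0.22). loxC, the plastid lipoxygenase behind the green-leaf volatiles of tomato fruit, had values of 0.72, 0.69 and 0.72 on the 20 dpa arrays, against -0.69, -0.76 and -0.74 on the 0 dpa arrays and rose (1.44 ± 0.07, adjusted p 1.92e-06). Alcohol dehydrogenase ADH2, which makes alcohols of the same volatiles, rose (0.78 ± 0.17). The plastid fatty acid desaturase Fad7 had values of -0.61, -0.63 and -0.67 on the 20 dpa arrays, against 0.63, 0.61 and 0.64 on the 0 dpa arrays and fell (-1.26 ± 0.07, adjusted p 3.96e-06). The jasmonate synthesis genes AOS (-0.76 ± 0.13) and OPR3 (-0.49 ± 0.09) and the jasmonate receptor COI1 (-0.42 ± 0.10) fell, and AOC did not pass (-0.14). DES (-0.54 ± 0.11) and the hydroperoxide lyase HPL (-0.35 ± 0.08) fell as well. The lipoxygenase genes loxD (0.11), LOXB (-0.19) and TomloxE (-0.25) did not pass. ADH2 and COI1 did not pass the methods' t-test (adjusted p 0.0511 to 0.0759).

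Of 8 heat shock and chaperone genes, 5 were higher and none was lower (median 0.37), but 3 were higher when the third 20 dpa array or the second or the third 0 dpa array was left out, and 2 by the methods' t-test. HSP17-6 and vis1 are described above. The plastid protein HSP21 had values of 0.13, 0.65 and 0.18 on the 20 dpa arrays, against -0.13, -0.45 and -0.81 on the 0 dpa arrays and rose (0.79 ± 0.19), as did the mitochondrial MTSHP (0.41 ± 0.12) and the endoplasmic reticulum protein ER-SHSP (0.32 ± 0.10). HSP17.4 (-0.08), HSC80 (-0.06) and Hsp90-1 (-0.02) did not pass. HSP17-6 was at 0.10, -0.70, 3.94 and 4.70 relative to 0 dpa at 5, 10, 20 and 50 dpa. The call of MTSHP was lost without 20 dpa replicate 1 or 3 or 0 dpa replicate 2 or 3 (adjusted p 0.0589 to 0.076). ER-SHSP missed the threshold without 20 dpa replicate 2 or 3 or 0 dpa replicate 1, 2 or 3 (adjusted p 0.0539 to 0.122). Calls lost by the methods' t-test were those of HSP21, MTSHP and ER-SHSP (adjusted p 0.0947 to 0.107).

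Redox enzymes were split, with 5 rises and 6 falls among 22 (median -0.02). RBOH1, an NADPH oxidase that makes superoxide, had values of 0.55, 0.29 and 0.69 on the 20 dpa arrays, against -0.29, -0.80 and -0.63 on the 0 dpa arrays and rose (1.09 ± 0.15). Monodehydroascorbate reductase MDHAR (0.95 ± 0.12), the catalases cat1 (0.88 ± 0.08) and CAT2 (0.45 ± 0.07) and the superoxide dismutase FESOD (0.71 ± 0.08) rose. The other probe set of FESOD did not pass (0.10, adjusted p 0.458). cat1 had values of 0.45, 0.45 and 0.40 on the 20 dpa arrays, against -0.40, -0.51 and -0.44 on the 0 dpa arrays, without overlap. The dehydroascorbate reductases DHAR1 (-0.79 ± 0.08) and DHAR2 (-0.31 ± 0.08), the alternative oxidase AOX1a (-0.75 ± 0.15) and the peroxidase APX2 (-0.45 ± 0.08) fell, so of the ascorbate cycle genes MDHAR rose and DHAR1 fell. GPXle-2 had opposite signs on its probe sets (-0.15 and 0.33) and is given no direction. DHAR2 missed the threshold without 20 dpa replicate 2 or 3 (adjusted p 0.0524 to 0.0525). The adjusted p of AOX1a by the methods' t-test was 0.0619.

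Wound and pathogenesis-related genes had 2 rises and 3 falls among 17 (3 passed by the methods' t-test or without 0 dpa replicate 2) and a median of 0.03. LAPA1, a wound-induced leucine aminopeptidase, had values of -1.02, -0.59 and -0.47 on the 20 dpa arrays, against 0.47, 0.52 and 0.54 on the 0 dpa arrays and fell (-1.21 ± 0.14, adjusted p 0.000212). The cathepsin D inhibitor gene cathDInh fell (-0.53 ± 0.09), and NP24-I, an osmotin-like protein, rose (0.64 ± 0.11). Of 10 MAP kinase and calcium-dependent kinase genes, 1 rose and 4 fell (median -0.15). Only 3 passed by the methods' t-test, or when the first or the third array of either stage was left out. MKK4 had values of -0.60, -0.54 and -0.59 on the 20 dpa arrays, against 0.64, 0.54 and 0.61 on the 0 dpa arrays and fell (-1.17 ± 0.07, adjusted p 7.78e-06), MAPK10 fell (-0.59 ± 0.08), and MPK3 rose (0.53 ± 0.08), though 1 of its other probe sets did not pass (-0.08, adjusted p 0.652).

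In membrane transport, 2 of 12 genes rose and 3 fell (2 fell and none rose by the methods' t-test), with a median of -0.03. PT1, a phosphate transporter, had values of -0.62, -0.43 and -0.39 on the 20 dpa arrays, against 0.43, 0.66 and 0.39 on the 0 dpa arrays and fell (-0.97 ± 0.10, adjusted p 0.000163), and the plasma membrane proton pump LHA2 fell (-0.45 ± 0.09). The aquaporin Aqp2 rose (0.53 ± 0.12), although it was higher still at 5 dpa (1.32) and 10 dpa (1.14). Of 12 translation genes, 1 rose and 5 fell (median -0.20). The cap-binding factor eIF4E1 (-0.71 ± 0.10) and the eIF-5A genes eIF-5A2 (-0.48 ± 0.09) and eIF-5A3 (-0.49 ± 0.08) fell. Their relatives eIF-5A1 (-0.02) and eIF-5A4 (-0.06) did not pass. DHS, the enzyme that activates eIF-5A, fell (-0.39 ± 0.09). Aqp2 was not called by the methods' t-test (adjusted p 0.0539).

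Against 10 dpa, 20 dpa differed at 3465 probe sets (34.3%), of which 1713 were higher (17.0%) and 1752 lower (17.3%). The named genes with the largest rises over 10 dpa were HSP17-6 (4.65 ± 0.08), ACO5 (2.96 ± 0.08), Xegip (2.35 ± 0.09), TBG4 (2.05 ± 0.14), MAN2 (1.90 ± 0.15) and CCR1 (1.59 ± 0.13), with adjusted p values of at most 8e-07. TBG4 was at -0.02 at 10 dpa and Xegip at 0.37 relative to 0 dpa. The largest falls were those of cel5 (-1.98 ± 0.13), LePIP1 (-1.81 ± 0.19), ST2 (-1.62 ± 0.10), CRTL-E-1 (-1.58 ± 0.16), GS2 (-1.52 ± 0.08) and P18 (-1.49 ± 0.09). The endoglucanase cel5 was at 2.45, 1.34, -0.64 and -1.08 relative to 0 dpa at 5, 10, 20 and 50 dpa.

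Against 20 dpa, 50 dpa differed at 3510 probe sets (34.7%), with 1949 higher (19.3%) and 1561 lower (15.5%). Changes of at least 2-fold numbered 595 (5.89%), with 200 higher (1.98%) and 395 lower (3.91%) at 50 dpa. The named genes with the largest rises over 20 dpa were XET2 (4.17 ± 0.11), a xyloglucan endotransglucosylase, TomloxE (3.31 ± 0.10), CHS1 (2.90 ± 0.35), CrtR-b1 (1.74 ± 0.07), NML2 (1.51 ± 0.13) and Eix1 (1.34 ± 0.11), a receptor-like protein that binds fungal xylanase. The largest falls were those of CDKB2 (-3.82 ± 0.12), MAN2 (-3.78 ± 0.15), XTH1 (-3.61 ± 0.08), TPRP-F1 (-3.55 ± 0.10), CEL8 (-3.10 ± 0.09) and CAT2 (-3.01 ± 0.09). At 50 dpa MAN2 was at 0.03 relative to 0 dpa, and TBG4 was at 0.59. RIN stood at 1.33 relative to 0 dpa at 50 dpa, and PG2 at 0.24.

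**Figure D5:**
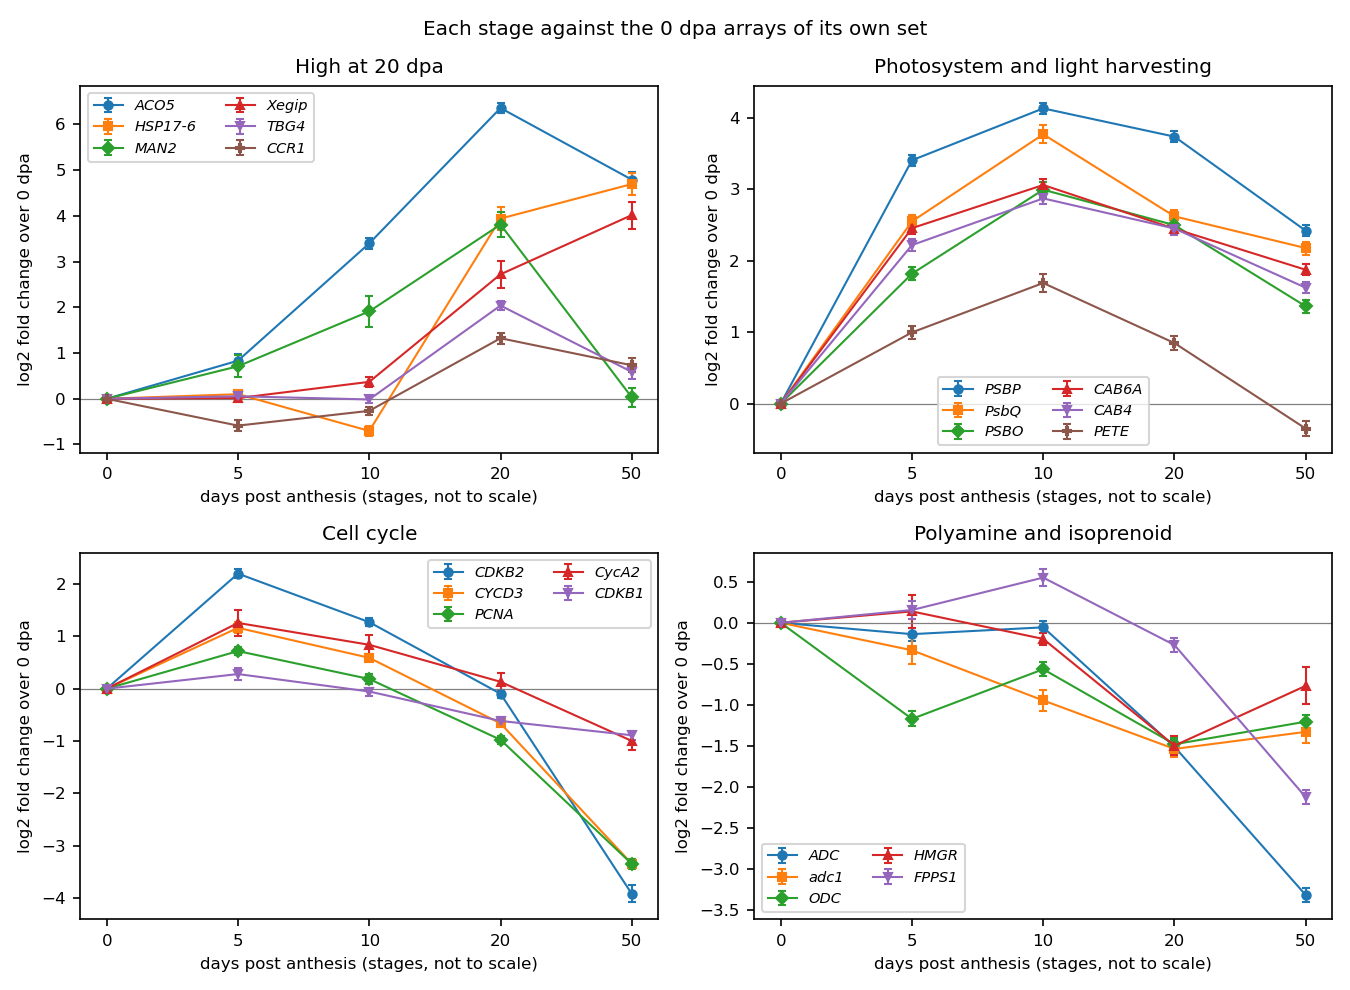
Log2 fold change over the 0 dpa arrays of the same set at 5, 10, 20 and 50 dpa, with standard errors, for genes high at 20 dpa and for photosystem, cell cycle, and polyamine and isoprenoid genes; 0 dpa is 0 by construction and stages are evenly spaced. The sets were normalised separately. ACO5 and TBG4 are highest at 20 dpa, the photosystem genes are highest at 10 dpa, and CDKB2, CYCD3 and PCNA go from above their 0 dpa value at 5 dpa to at or below it at 20 dpa.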

How the data were processed

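RNA of eggplant fruit was measured on a tomato GeneChip. GeneSpring GX 11.5 with RMA (background correction, quantile normalisation, median polish) gave the deposited log2 values, according to the design text of the series. The submitters' processing notes name RMA too. Each later stage was normalised with its own copy of the 3 arrays of 0 dpa, per the labels. All 10209 probe sets of the set used here had a median within 1e-05 of 0 over its 6 arrays, so the deposited values were centred. A positive value was read as higher expression. Scanner values that could test this were not analysed.

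Tests ran without the 108 control probe sets. The 20 dpa arrays were compared with the 0 dpa arrays of the same set with limma 3.58.1 in R 4.3.3 (lmFit, eBayes, two-sided, no covariate), with Benjamini-Hochberg adjustment over 10101 probe sets and a threshold of 0.05. Comparisons with 10 and 50 dpa came from a limma fit of the 12 arrays of the 4 later stages, each set against the 0 dpa mean of its own set. The tests were run on simulated data with known changes. Symbols came from the platform annotation dated 2007, and where a gene had several probe sets 1 was chosen by its ID. Where arrays come from separate plants is not stated, so p values measure only the spread between them.

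The members, lists and tests were chosen with earlier results of these data known. Genes were named by rule. The 15 largest rises and falls were taken among genes with a name that passed the threshold and did not overlap between stages. For each list, all members up to 8 were named, or else the 4 of lowest p and the 4 of greatest change. A fixed set was named whatever its values (RIN, TDR4, TAGL1, PG2, EXP1, E8, ACS2, ACS4, Psy1, TBG4, lin5, DFR, CHS1, PCNA and fsm1). The 6 largest rises and falls that passed against 10 and 50 dpa were named too. Further members were named where a family is given whole, or were chosen after their values were seen. Alternatives were median centring, the methods' t-test, robust eBayes, the replicate number as a block, each array left out, and another probe set per gene. Figures were drawn with matplotlib 3.10.9.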

Additional observations from a re-analysis of the deposited data

Results flagged for a closer look

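No group held more than 3 arrays, so no single array was tested for standing apart. Among 387 genes listed or named, 12 passed the threshold against 0 dpa in opposite directions at 20 dpa and at 10 dpa. Of all 10101 probe sets, 3830 passed at 20 dpa and 3567 at 10 dpa. How many of these had opposite directions was not counted, so 12 cannot be called many or few. For each of the 12, the difference between those stages also passed in the fit of the 12 later arrays. The choice by opposite calls nearly fixed that outcome, so it adds no support. That fit sets values across separately normalised tables, and both stages share the 0 dpa arrays in it.

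Higher at 20 dpa and lower at 10 dpa were HSP17-6 (3.94 and -0.70 relative to 0 dpa, difference 4.64), CCR1 (1.32 and -0.26, difference 1.59), NP24-I (0.64 and -0.86, difference 1.5), GA3ox1 (0.42 and -0.49, difference 0.90) and the cell cycle kinase cdc2A-2 (0.43 and -0.39, difference 0.82). Lower at 20 dpa and higher at 10 dpa were cel5 (-0.64 and 1.34, difference -1.98), LePIP1 (-0.68 and 1.12, difference -1.81), gad2 (-0.81 and 0.45, difference -1.27), CYCD3 (-0.66 and 0.59, difference -1.25), hqt (-0.44 and 0.76, difference -1.20), AOS (-0.76 and 0.38, difference -1.14) and FPPS1 (-0.27 and 0.55, difference -0.82). Among these are the cell cycle genes CYCD3 and cdc2A-2. The jasmonate, GABA, chlorogenic acid and lignin routes each had a single gene, AOS, gad2, hqt and CCR1. The calls of FPPS1 and cdc2A-2 at 20 dpa were lost when single arrays were left out, as given above. By the methods' t-test FPPS1, cdc2A-2 and gad2 did not pass at 20 dpa (adjusted p 0.0601 to 0.0694). At 10 dpa the adjusted p of CCR1 from limma was 0.0403.

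Outside the 10101 probe sets tested, the control probe set at the 5′ end of GAPDH was higher at 20 dpa by 1.12, while the 3′ end of the same transcript differed by 0.17. Of 42 probe sets for bacterial labelling spikes, 0 were higher and 8 were lower at 20 dpa, with a median of -0.14. Of all probe sets tested, 17.8% were higher and 20.1% were lower. Several of the 42 report the same spike, so they are not independent. The part of these controls in the gene results was not tested.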

How the results depend on the processing

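None of the counts of probe sets that passed moved by more than 1.5 times. The count at 20 dpa against 0 dpa was 2900 by the methods' t-test, 3725 with the replicate number as a block, 3810 with arrays centred on their medians, and 3183 to 3472 without 1 array. With at least a 2-fold change it was 527 to 556 under all alternatives. Against 10 dpa the count was 3447 with the replicate block and 2904 to 3117 without 1 array, and for 50 dpa against 20 dpa it was 3490 and 2996 to 3196. Same-numbered arrays of the stages deviated with correlations of 0.04, 0.00 and 0.03, so the numbers were not taken as pairs. Of 387 genes named or listed, 185 passed as reported and 126 of these passed under every alternative. The methods' t-test lost 52 calls, the block lost 12 and gained 6, and leaving out 1 array lost 21 to 25. Another probe set of the same gene (the highest mean of centred values, so not the brightest) turned the sign of GPXle-2 to 0.33 (-0.15 as reported), H1 to -0.86 (0.31 as reported), VDE to -0.36 (0.02 as reported) and mMDH1 to -0.015 (0.27 as reported). With the block, 1 cytosolic isoprenoid gene and 2 abscisic acid genes passed, and ovary genes fell to 1 by the methods' t-test. The cause of these differences was not tested. Arrays, 3 a stage, limit the precision, and with no signal level left no filter on dim probes could be tried.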

Other observations

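Genes with several probe sets gave a measure of how far the symbols can be trusted. Of 82 such genes, 45 had the same call at 20 dpa against 0 dpa on all their probe sets. Passing the threshold in both directions were 3: H1 (0.31 and -0.86), ats1 (0.55 and -0.35) and a gene known by a locus number only (-0.40 and 1.18). No direction is given for them.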
